A study of Arabidopsis thaliana with 30 samples.

Results

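The genes described are the 44 Arabidopsis thaliana loci that encode the light-harvesting proteins (LHCA1 to LHCA6 and LHCB1 to LHCB7) and the nuclear subunits of photosystem I (PSA) and photosystem II (PSB). They were taken by name from the annotation, and all 44 of the 27588 genes in the files were found. They form an antenna class of 21 loci (6 of LHCI, 9 of LHCII and 6 of the minor photosystem II antenna), a photosystem I class of 13 and a photosystem II class of 10. Rosettes were sequenced from plants of 4 weeks in 10 groups of 3 libraries, 30 in all. The genotypes were oePsbS_CA1_CA2 (the triple line, which overexpresses βCA1 and βCA2 in oePsbS), oePsbS_CA1 (the double line, which overexpresses βCA1 in oePsbS), oePsbS (which overexpresses PsbS), npq4-1 (which lacks PsbS) and Col-0, the wild type that all of them share as background. From the age of 2 weeks each genotype received 10 ml of 3 mM sodium bicarbonate or of water every 2 days, at 21 °C with 16 h of light (120 µmol photons m-2 s-1) and 8 h of darkness. The carbonic anhydrase transgenes were driven by the 35S and ROLD promoters, and which of the independent transformants gave the libraries is not given in the sources used here. The methods speak of 3 biological samples and of 3 technical repeats without saying which the libraries are, so the p-values measure only the spread between these samples, which may be technical.

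Light-harvesting proteins bind chlorophyll and pass excitation energy to a reaction centre. LHCI, made of LHCA proteins, surrounds photosystem I, and the trimers of LHCII (LHCB1, LHCB2 and LHCB3) with the monomers LHCB4, LHCB5 and LHCB6 surround photosystem II. The nuclear PSA subunits dock ferredoxin, plastocyanin and antenna proteins on photosystem I, and the extrinsic PSB subunits in the lumen stabilise the water-splitting cluster of photosystem II. The reaction-centre proteins themselves are encoded in the plastid and are not members. PsbS and the β carbonic anhydrases, which were altered in these plants, act on energy dissipation and on the exchange of carbon dioxide and bicarbonate.

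Several members are near-copies of each other, and the first 90 coding bases of the 3 LHCB1 loci that lie side by side on chromosome 1 are shown because their counts depend on telling them apart. Capitals mark bases that differ from LHCB1.1. Sequences and positions are from RefSeq, assembly TAIR10.1, written 5′ to 3′ on the coding strand.
LHCB1.1, chr1:10475803-10475892, minus strand: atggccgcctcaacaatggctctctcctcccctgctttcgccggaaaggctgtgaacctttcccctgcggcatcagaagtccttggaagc
LHCB1.2, chr1:10473157-10473246, minus strand: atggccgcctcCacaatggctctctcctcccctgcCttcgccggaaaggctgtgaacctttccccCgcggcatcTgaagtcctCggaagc
LHCB1.3, chr1:10478071-10478160, plus strand: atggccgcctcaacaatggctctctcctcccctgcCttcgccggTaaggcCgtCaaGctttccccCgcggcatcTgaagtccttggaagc
Over the whole coding sequence of 804 bases, LHCB1.1 differed from LHCB1.2 at 35 bases and from LHCB1.3 at 31. The reads were 150 bases long, and none of the 150-base windows of an LHCB1 transcript occurred without a mismatch in another LHCB1 transcript. LHCB2.1 and LHCB2.2, with 96.6% identical coding bases, shared 3 such windows. Reads that span few differences were divided by Salmon's estimate, so single values within LHCB1 and LHCB2 are uncertain.

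The LHCB4 family, which encodes the monomeric antenna protein CP29, holds the member with the largest changes in these data, LHCB4.3. Its coding sequence was 831 bases long, against 873 in LHCB4.1 and 864 in LHCB4.2. Identity of coding bases was 65.7% with LHCB4.1 and 66.9% with LHCB4.2, whereas LHCB4.1 and LHCB4.2 were 81.1% identical. In the last 60 coding bases, LHCB4.1 and LHCB4.2 differ in single bases and in the stop codon (in capitals) and encode the same residues. LHCB4.3 ends differently from both.
LHCB4.1, chr5:210184-210243, plus strand: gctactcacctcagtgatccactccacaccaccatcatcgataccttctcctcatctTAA
LHCB4.2, chr3:2718606-2718665, plus strand: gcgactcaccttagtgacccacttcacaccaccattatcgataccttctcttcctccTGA
LHCB4.3, chr2:16747131-16747190, plus strand: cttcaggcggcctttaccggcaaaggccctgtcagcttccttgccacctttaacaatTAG
No 150-base window was shared among the 3 LHCB4 transcripts, as in LHCB1. Identity of coding bases was lower than within LHCB1 (86.8% to 96.4%), so reads in the coding sequence span more differences on average.

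Library totals lay between 15346368 and 18326430 estimated reads (median 16877156), and members took 16.4% to 19.3% of them. All 44 members passed the filter on low counts in each comparison, and the lowest count of any member in a library was 226 (LHCB7). PsbS transcript (PSBS, AT1G44575) was at 7.36 TPM (Salmon's abundance scaled for length and depth) or less in the npq4-1 libraries and between 3890 and 6164 TPM in the 3 lines built on oePsbS, against 1624 to 2049 TPM in Col-0. βCA1 (BCA1, AT3G01500) was between 8966 and 13292 TPM in 5 of the 6 libraries of the double line and at 1766 TPM in the library labelled oePsbS_CA1 bicarbonate replicate 3, against 1791 to 2912 TPM in oePsbS. That library goes against its label, and the counts of members in comparisons that use it are given with and without it. In the triple line with bicarbonate, BCA1 was between 2438 and 2818 TPM, against 2559 to 2912 TPM in oePsbS with bicarbonate, and βCA2 (BCA2, AT5G14740) between 1858 and 1968 TPM, against 1850 to 2023 TPM. Both ranges overlap, so no excess of either transcript was seen there, whereas with water the triple line had 1590 to 1887 TPM of BCA2, against 1299 to 1352 TPM in oePsbS. Leaf mesophyll markers summed to 21047 TPM or more in every library and root markers to 1.84 TPM or less, with COBL9, EXPA7, EXPA18, IRT1 and PRP3 at or near 0, and floral markers to 31.2 TPM or less. In whole rosettes, fewer cells of a type and less RNA per cell cannot be told apart.

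Levels of the members spanned 1161-fold. In the antenna class, LHCB1.3 (AT1G29930), a subunit of the major LHCII trimer, was the most abundant at 23826 TPM averaged over the 30 libraries (lowest 21649, median 23515, highest 27638). LHCB1.5 (AT2G34420) followed at 11137 TPM and LHCA4 (AT3G47470), an LHCI subunit, at 9522 TPM. The lowest was LHCB7 (AT1G76570), a rarely expressed relative of LHCB5, at 20.5 TPM. In the photosystem II class, PSBR (AT1G79040) reached 9208 TPM, PSBO1 (AT5G66570) 5027 TPM and PSBP1 (AT1G06680) 4377 TPM, and PSBO2 (AT3G50820) was lowest at 1761 TPM. In the photosystem I class, PSAO (AT1G08380) reached 5745 TPM, PSAG (AT1G55670) 4889 TPM and PSAL (AT4G12800) 4742 TPM, and PSAE2 (AT2G20260) was lowest at 929 TPM. The ranges of PSAG and PSAL over the libraries overlapped, as did those of LHCB1.5 and LHCA4. Only 4 members averaged under 300 TPM, and all of them were antenna genes: LHCA5 (AT1G45474), LHCA6 (AT1G19150), LHCB4.3 (AT2G40100) and LHCB7. The other 40 lay at 929 TPM or above. Group means differed by less than 1.5-fold for 43 of the 44 members, and LHCB4.3, at 1.84-fold, was the exception.

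Summed TPM showed how the classes stood to each other. The antenna class took 60.6% ± 0.84 of the members' TPM over all 30 libraries (SD), photosystem I 21.4% ± 0.49 and photosystem II 18.0% ± 0.42. The ratio of antenna to photosystem transcripts separated 1 pair of treatments. In oePsbS it was 1.514, 1.481 and 1.495 with bicarbonate, against 1.593, 1.665 and 1.672 with water, and the libraries did not overlap. The means were 1.497 ± 0.017 with bicarbonate and 1.643 ± 0.044 with water (SD, n = 3 each). Among the 10 groups, the highest mean was that of oePsbS with water and the lowest that of oePsbS with bicarbonate, the next lowest being that of the triple line with water, at 1.499. In the other genotypes the treatments overlapped, at 1.552 ± 0.045 with bicarbonate and 1.499 ± 0.049 with water in the triple line, and at 1.554 ± 0.028 with bicarbonate and 1.527 ± 0.018 with water in the double line. In npq4-1 it was 1.529 ± 0.036 with bicarbonate and 1.573 ± 0.026 with water, and in Col-0 1.540 ± 0.073 with bicarbonate and 1.507 ± 0.054 with water. With water, both βCA lines also lay below oePsbS in this ratio, without overlap. With bicarbonate the double line, at 1.536 to 1.587, lay above oePsbS, at 1.481 to 1.514, also without overlap, while the triple line overlapped with oePsbS. Without the library that lacks the βCA1 excess, the double line with bicarbonate averaged 1.538 (n = 2). These ratios were not tested.

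**Figure D1:**
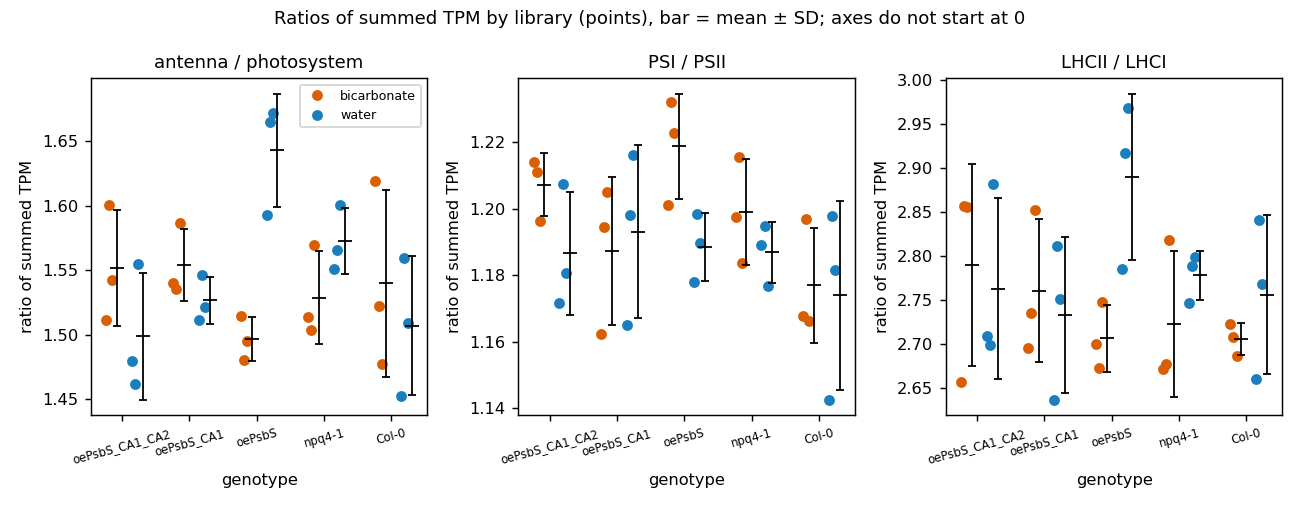
Ratios of summed TPM (vertical axes, not starting at 0) for antenna to photosystem, photosystem I to II and LHCII to LHCI, with 3 libraries (points) and mean ± SD (bars) for each genotype with bicarbonate (orange) and water (blue). The antenna to photosystem ratio of oePsbS with water, at 1.593 to 1.672, lay above that of oePsbS with bicarbonate, at 1.481 to 1.514.

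Summed class levels in oePsbS depended on the scale. In TPM, photosystem I transcripts summed to 46021 ± 774 TPM with bicarbonate and 43910 ± 872 TPM with water (SD, n = 3 each), and the libraries did not overlap. Photosystem II transcripts summed to 37766 ± 559 TPM with bicarbonate and 36941 ± 420 TPM with water, and the antenna to 125414 ± 2218 TPM with bicarbonate and 132882 ± 5532 TPM with water, both with overlapping libraries. As log2 ratios of bicarbonate to water these were 0.07 for photosystem I, 0.03 for photosystem II and −0.08 for the antenna in TPM. On TMM-scaled CPM (counts scaled by library size and TMM factor), they were 0.15, 0.11 and −0.00 in that order. Within the antenna, the LHCII sum was 76872 TPM with bicarbonate and 83980 TPM with water. The ratio of LHCII to LHCI was 2.71 ± 0.04 with bicarbonate and 2.89 ± 0.09 with water.

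Bicarbonate raised 11 of the 44 members in oePsbS and lowered none (adjusted p under 0.05 in edgeR's quasi-likelihood test, adjusted over all 18132 genes). They were 5 of 21 antenna genes, 3 of 13 photosystem I genes and 3 of 10 photosystem II genes, or 25% of the members, where 8.16% of all genes tested were higher. The median log2 fold change was 0.12 over the members and −0.00 over all genes. It was 0.04 for the antenna, 0.14 for photosystem I and 0.16 for photosystem II. No change reached the 2-fold limit that the study added to the adjusted p, the largest being 0.72 on the log2 scale, whereas 1.34% of all genes passed both. The count depended on single oePsbS libraries: it was 4 without water replicate 2, 5 without water replicate 3, 7 without bicarbonate replicate 2 and 7 without bicarbonate replicate 3, and 2 members were lower without water replicate 1.

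**Figure D2:**
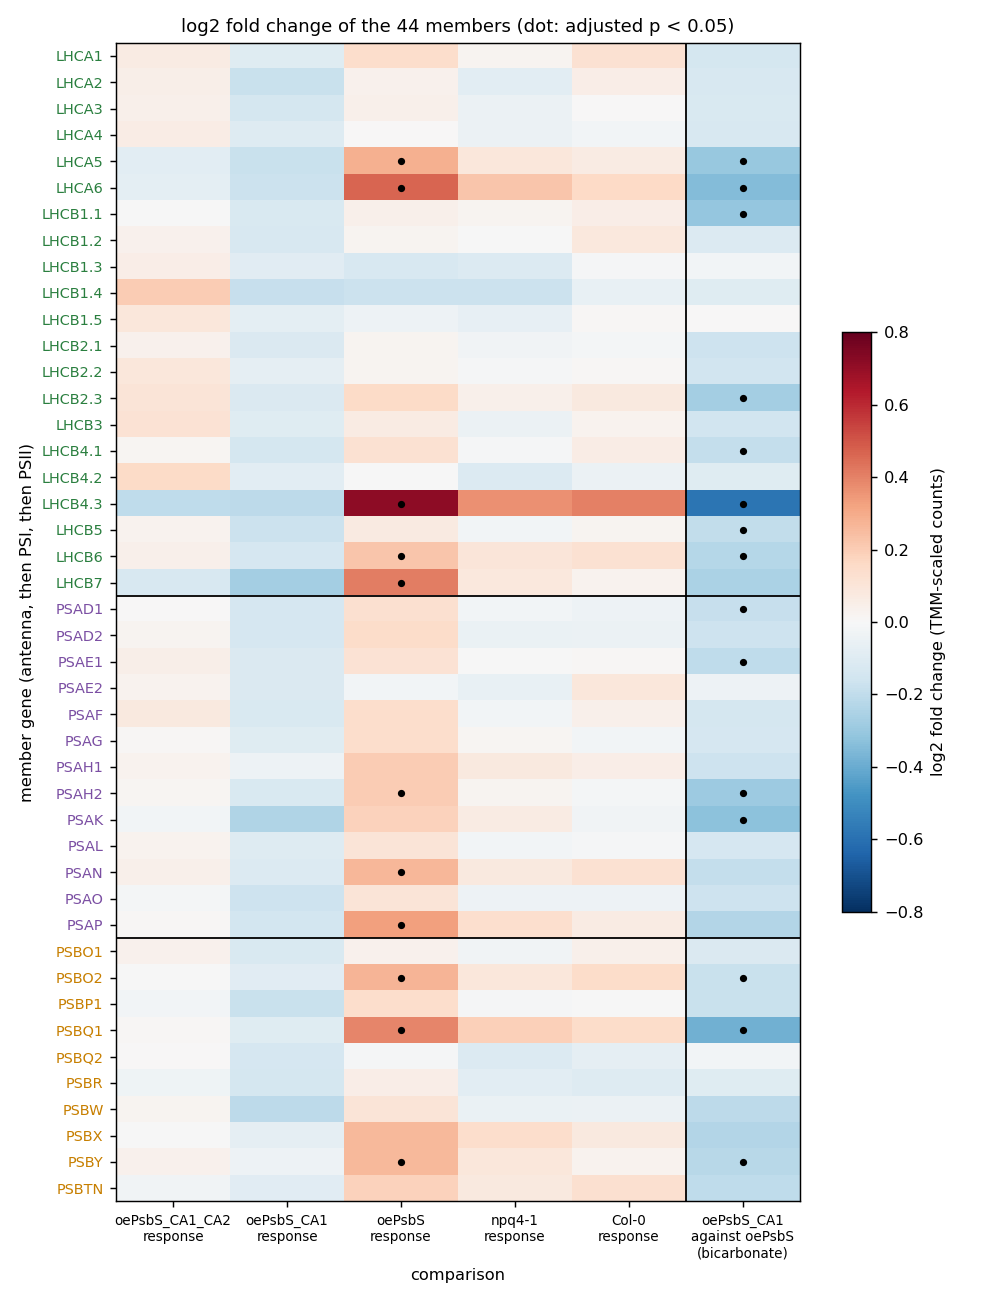
Log2 fold change (colour, TMM-scaled counts) of each member (rows, antenna in green, photosystem I in purple, photosystem II in ochre) for bicarbonate against water in each genotype, and for the double line against oePsbS with bicarbonate (right column). Dots mark adjusted p under 0.05: 11 members were higher in the oePsbS response, 15 were lower in the right column, and none passed in the other 4 responses.

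Of the antenna genes that rose in oePsbS, 4 were the 4 least abundant members. LHCB4.3 was at 80.1, 73.9 and 81.4 TPM with bicarbonate, against 59.2, 47.6 and 45.6 TPM with water. The libraries did not overlap, and the log2 fold change was 0.72 (SE 0.11, adjusted p = 0.00338 from edgeR). LHCA6, which with LHCA5 links photosystem I to the NDH complex of cyclic electron flow, was at 135, 152 and 158 TPM with bicarbonate, against 113, 115 and 115 TPM with water. Its log2 fold change was 0.47 (SE 0.08, adjusted p = 0.00493, edgeR), and the water libraries lay closely together. LHCA5 was at 274, 289 and 273 TPM with bicarbonate, against 243, 236 and 240 TPM with water, also without overlap (log2 fold change 0.29, SE 0.06). LHCB7 was at 25.2, 20.0 and 19.9 TPM with bicarbonate, against 17.5, 15.4 and 18.9 TPM with water (log2 fold change 0.41, SE 0.12). One bicarbonate library stood well above the others for LHCB7. The fifth was the abundant LHCB6 (AT1G15820), the monomer CP24 that joins LHCII trimers to photosystem II, at 5257, 4884 and 5664 TPM with bicarbonate, against 4767, 4979 and 4683 TPM with water. Its TPM ranges overlapped, and its log2 fold change on TMM-scaled counts was 0.22 (SE 0.06, adjusted p = 0.0390, edgeR).

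**Figure D3:**
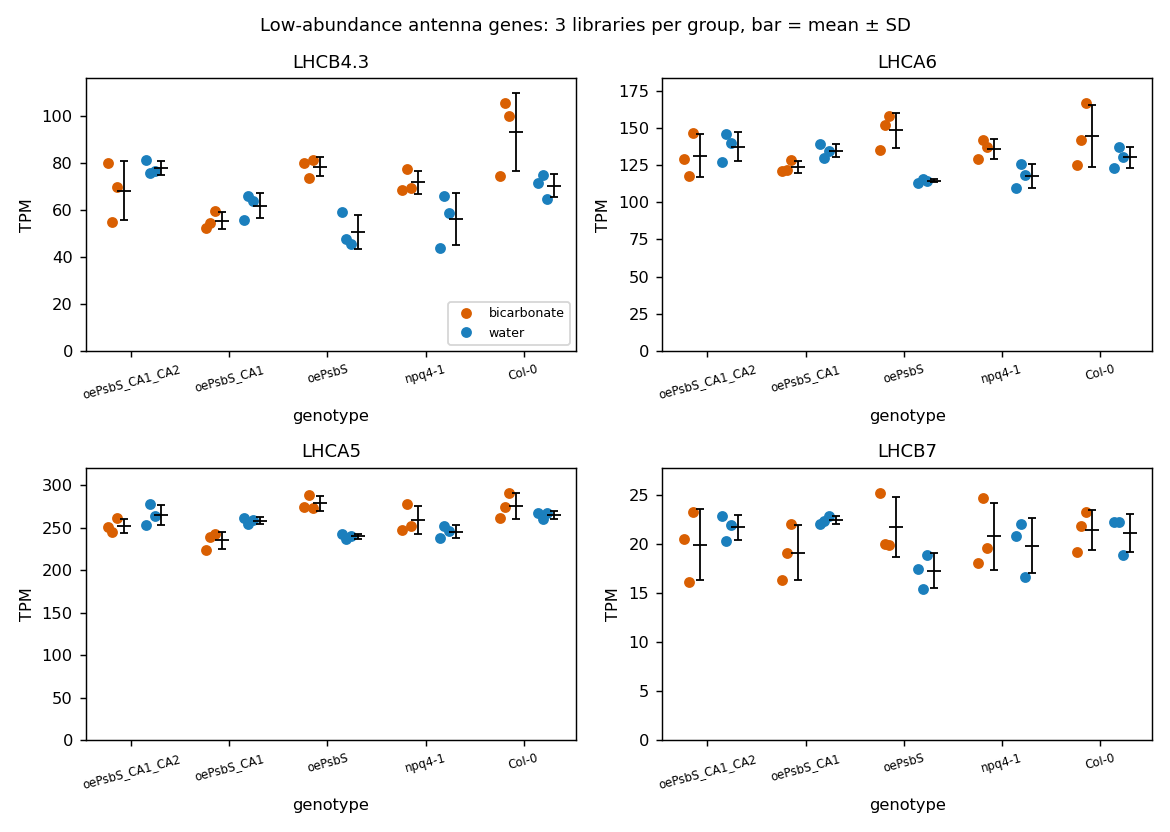
TPM (vertical axes, from 0) of LHCB4.3, LHCA6, LHCA5 and LHCB7 in each library (points) with mean ± SD (bars), for each genotype with bicarbonate (orange) and water (blue). LHCB4.3 in oePsbS was between 73.9 and 81.4 TPM with bicarbonate and between 45.6 and 59.2 TPM with water, while in the double line the bicarbonate libraries (52.3 to 59.7 TPM) and water libraries (55.7 to 66.1 TPM) overlapped.

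Among the photosystem II genes, PSBQ1, PSBO2 and PSBY rose. PSBQ1 (AT4G21280), an extrinsic subunit of the oxygen-evolving complex, was at 2021, 2061 and 2242 TPM with bicarbonate, against 1762, 1721 and 1641 TPM with water (log2 fold change 0.39, SE 0.07, adjusted p = 0.00714, edgeR). PSBO2, an isoform of the manganese-stabilising protein, was at 1847, 1886 and 1852 TPM with bicarbonate, against 1647, 1648 and 1652 TPM with water (log2 fold change 0.27, SE 0.05). Both genes were separated between treatments, while their more abundant partners PSBQ2 (AT4G05180, log2 fold change −0.01) and PSBO1 (0.03) did not pass the test. PSBY (AT1G67740), a small membrane subunit, had a log2 fold change of 0.26 (SE 0.06). PSBP1, PSBR, PSBW (AT2G30570), PSBX (AT2G06520) and PSBTN (AT3G21055) had log2 fold changes between 0.05 and 0.26 and did not pass.

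Among the photosystem I genes, PSAP, PSAN and PSAH2 rose. PSAP (AT2G46820), also named CURT1B for its role in bending thylakoid membranes, was at 2129, 2103 and 2152 TPM with bicarbonate, against 1787, 1828 and 1752 TPM with water (log2 fold change 0.33, SE 0.06, adjusted p = 0.00562, edgeR). PSAN (AT5G64040), a lumenal subunit near the plastocyanin site, was at 4012, 3730 and 4042 TPM with bicarbonate, against 3561, 3468 and 3291 TPM with water (log2 fold change 0.27, SE 0.07). PSAH2 (AT1G52230), which takes part in docking LHCII on photosystem I, was at 3734, 3960 and 3947 TPM with bicarbonate, against 3430, 3606 and 3659 TPM with water (log2 fold change 0.20, SE 0.06). The treatments were separated for all 3, which were chosen because they passed, so this is not separate evidence. The other photosystem I members, PSAD1 (AT4G02770), PSAD2 (AT1G03130), PSAE1 (AT4G28750), PSAE2, PSAF (AT1G31330), PSAG, PSAH1 (AT3G16140), PSAK (AT1G30380), PSAL and PSAO, lay between −0.02 and 0.20 and did not pass.

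**Figure D4:**
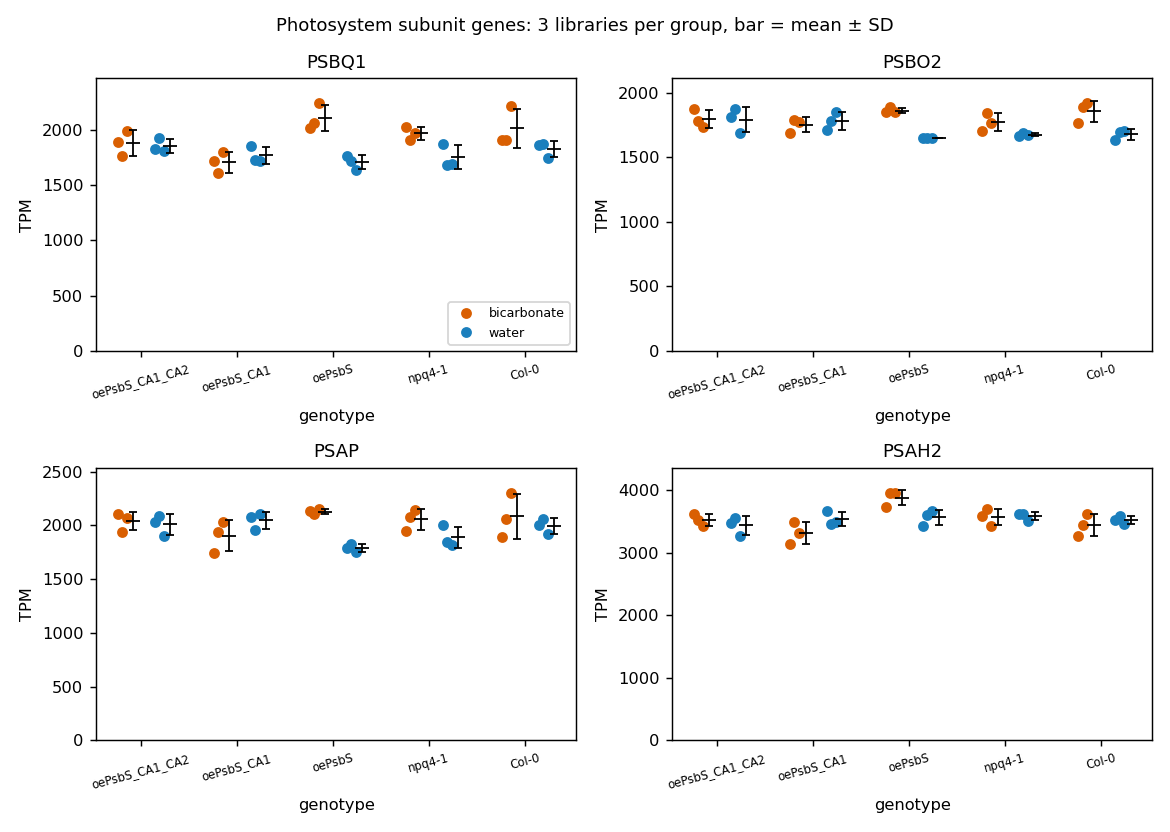
TPM (vertical axes, from 0) of PSBQ1, PSBO2, PSAP and PSAH2 in each library (points) with mean ± SD (bars), for each genotype with bicarbonate (orange) and water (blue). PSBO2 in oePsbS was between 1847 and 1886 TPM with bicarbonate and between 1647 and 1652 TPM with water.

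None of the 9 LHCII genes passed the test in oePsbS. LHCB1.3 was at 23062, 22331 and 22390 TPM with bicarbonate, against 24137, 27399 and 27638 TPM with water. The groups did not overlap in TPM, and the log2 fold change on TMM-scaled counts was −0.13 (SE 0.05, adjusted p = 0.0833, edgeR). LHCB1.4 (AT2G34430) had a log2 fold change of −0.17 (SE 0.08) and LHCB1.5 of −0.04. LHCB1.1 (AT1G29920) and LHCB2.2 (AT2G05070), which encode subunits of the LHCII trimer, had log2 fold changes of 0.04 (SE 0.05) and 0.02 (SE 0.05). LHCB1.2 (AT1G29910), LHCB2.1 (AT2G05100), LHCB2.3 (AT3G27690), LHCB3 (AT5G54270), LHCB4.1 (AT5G01530), LHCB4.2 (AT3G08940), LHCB5 (AT4G10340), LHCA1 (AT3G54890), LHCA2 (AT3G61470), LHCA3 (AT1G61520) and LHCA4 lay between −0.00 and 0.15.

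**Figure D5:**
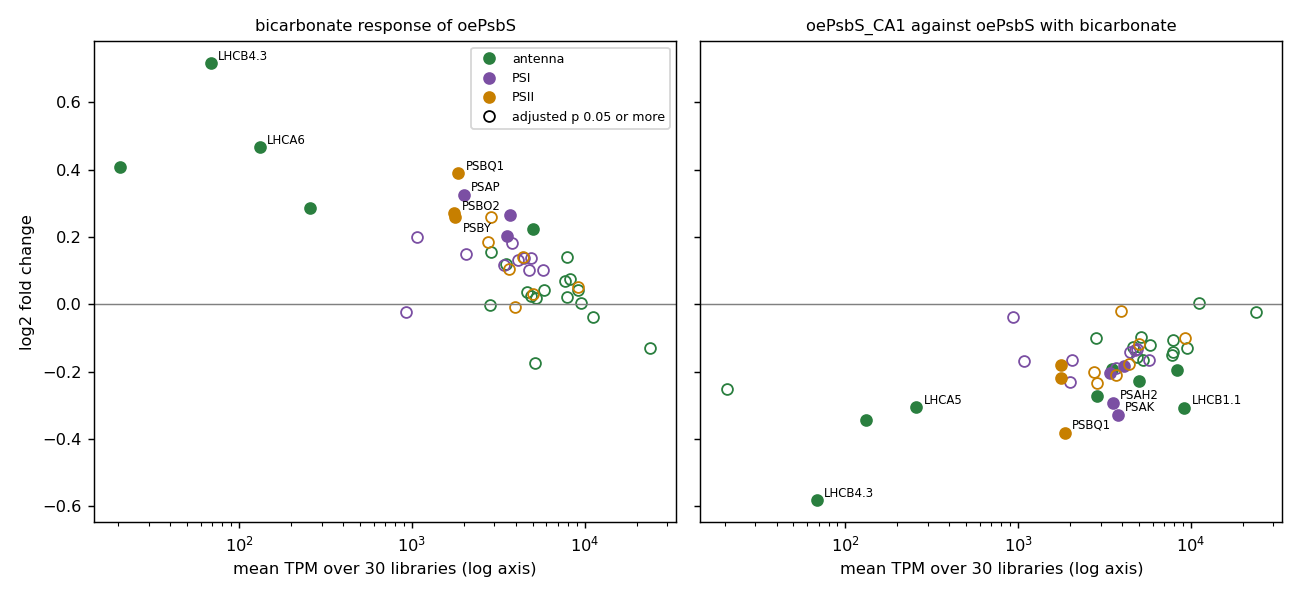
Log2 fold change of each member (vertical axis) against its mean TPM over the 30 libraries (horizontal log axis), for the bicarbonate response of oePsbS (left) and for the double line against oePsbS with bicarbonate (right). Filled points passed adjusted p under 0.05, with the 6 smallest adjusted p named. LHCB4.3 lies farthest from 0 in both panels, at 0.72 on the left and −0.58 on the right.

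Counts and sizes depended on scaling. With library totals alone in place of TMM factors (trimmed mean of M-values), the median over all genes in the oePsbS response was −0.07 in place of −0.00, and that over the members 0.05 in place of 0.12, with 28 of 44 members above 0 in place of 38. All genes then split into 1030 higher and 2072 lower, against 1480 and 1304 with TMM, and the members into 8 higher and 1 lower, against 11 and 0. With limma on log2 TPM, which is scaled to a fixed total as well, 6 members were higher. Each of the 11 members kept a positive value under every alternative run.

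Other genes of the photosynthetic programme moved in the same comparison. Of 11 genes of chlorophyll synthesis, 9 were higher and 1 lower in oePsbS with bicarbonate. DVR, a divinyl reductase, rose by 0.49 and CHLH, a subunit of magnesium chelatase, by 0.33 on the log2 scale, and PORB, a protochlorophyllide oxidoreductase, fell by 0.64. GUN4, which activates magnesium chelatase, rose by 0.37, and no other of the 8 antenna regulators and kinases passed. None of the 4 genes of antenna protein targeting and none of the 7 plastid-encoded photosystem genes passed, and 2 of the 3 CURT1 relatives of PSAP rose (CURT1A by 0.28, CURT1D by 0.56). All 4 leaf mesophyll markers rose (0.34 to 0.52), with summed levels of 25740 to 26848 TPM with bicarbonate and 21047 to 22607 TPM with water. Among clock genes, 4 of 5 of the morning set rose (CCA1 by 0.46, LHY by 0.45), and 3 of the 4 tested of the later set fell, PRR5 by 1.51. Morning genes summed to 381 to 456 TPM with bicarbonate and 348 to 369 TPM with water, and later genes to 12.6 to 15.9 TPM with bicarbonate and 19.9 to 21.7 TPM with water. SEP2 and SEP3 fell among the 7 floral markers tested, whose list summed to 10.0 to 13.9 TPM with bicarbonate and 12.9 to 31.2 TPM with water. In npq4-1, where no member passed, the clock and mesophyll sums were apart as well. With bicarbonate, morning genes were at 397 to 446, later genes at 16.8 to 17.1 and mesophyll markers at 24691 to 26316.5 TPM. With water, they were at 347 to 388, 23.1 to 24.6 and 21854 to 23511 TPM. In Col-0 and the triple line these sums overlapped. In the double line with bicarbonate, morning genes were higher and mesophyll markers lower without overlap, and later genes overlapped. The part of mesophyll share, time of day or floral tissue in the members' changes was not tested.

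In the other 4 genotypes no member passed the test. In the double line all 44 members were below 0 (42 with library totals alone, where 2 were above), with a median log2 fold change of −0.12 and a largest value of −0.27 (LHCB7). Unadjusted p was under 0.05 for 9 of them, DESeq2 called 1 lower, and 1.93% of all genes tested were called in either direction and 0.775% of all genes tested also passed 2-fold. PSAK, an antenna-facing subunit of photosystem I, had the smallest p and was at 3271, 3296 and 3546 TPM with bicarbonate, against 3793, 3673 and 4098 TPM with water (log2 fold change −0.24, SE 0.07, adjusted p = 0.158, edgeR). Without the library that lacks the βCA1 excess, 1 member was lower (LHCB1.4), and the log2 fold change of PSAK was −0.29. In the triple line 32 members were above 0, the median was 0.03, 2 had an unadjusted p under 0.05, and 2.01% of all genes tested were called and 1.31% also passed 2-fold. In npq4-1 the median was −0.01 with 3 unadjusted p under 0.05 and 1.06% of all genes tested called and 0.252% also past 2-fold. In Col-0 the median was 0.03 with 1 unadjusted p under 0.05 and 0.51% called and 0.313% also past 2-fold. DESeq2 and limma called no member in these last 3 genotypes. For these 4 genotypes, the medians, sign counts and counts at unadjusted p stand without the values of all genes. They are not read as results about the members.

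LHCB4.3 had the largest response in Col-0 too, with 74.4, 106 and 100 TPM with bicarbonate, against 71.5, 74.8 and 65.0 TPM with water (log2 fold change 0.40, SE 0.14, adjusted p = 0.402, edgeR). In npq4-1 it was at 68.6, 77.4 and 69.6 TPM with bicarbonate, against 43.9, 66.1 and 58.8 TPM with water (log2 fold change 0.37, SE 0.12, adjusted p = 0.181, edgeR). The libraries overlapped in Col-0 and not in npq4-1, and neither response passed. In the double line it was at 52.3, 54.7 and 59.7 TPM with bicarbonate, against 55.7, 66.1 and 64.1 TPM with water (log2 fold change −0.21, SE 0.08, and −0.27 without the library that lacks the βCA1 excess). In the triple line it was at 80.1, 54.9 and 70.0 TPM with bicarbonate, against 81.4, 75.9 and 76.7 TPM with water (log2 fold change −0.20, SE 0.13). Libraries overlapped in both βCA lines, and neither response passed.

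Averaged over the 5 genotypes with equal weight, bicarbonate raised 3 of 44 members, a share close to the 7.73% of all genes that were higher. LHCB4.3 rose by 0.21 (SE 0.06, adjusted p = 0.0237, edgeR), PSBQ1 by 0.12 (SE 0.04) and PSBO2 by 0.08 (SE 0.03). None was lower, and 22 of 44 members lay on either side of 0. The count was 3 without the library that lacks the βCA1 excess, 5 without Col-0 bicarbonate replicate 1, and 1 without Col-0 bicarbonate replicate 3 or without oePsbS bicarbonate replicate 3.

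With water, the genotypes differed little in these genes. Against Col-0, oePsbS had 1 member higher and 1 lower, where 3.58% of all genes were higher and 4.98% lower. LHCB1.1 was at 10204, 9928 and 10039 TPM in oePsbS, against 8487, 8648 and 8836 TPM in Col-0 (log2 fold change 0.19, SE 0.05, adjusted p = 0.0234, edgeR). LHCB4.3 was at 59.2, 47.6 and 45.6 TPM in oePsbS, against 71.5, 74.8 and 65.0 TPM in Col-0 (log2 fold change −0.50, SE 0.14, adjusted p = 0.0272, edgeR). Neither pair of groups overlapped in TPM, but LHCB1.1 passed in none of the 6 fits that left out 1 library except that without Col-0 water replicate 2, in which 4 members were higher. LHCB4.3 was not called without Col-0 water replicate 1 or 2, or without oePsbS water replicate 2 or 3. The triple line (0.0737% of all genes called), the double line (0.0684%) and npq4-1 (0.705%) had no member past the threshold against Col-0 with edgeR, with DESeq2 or with limma, and unadjusted p under 0.05 in 1, 3 and 2 members.

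Against oePsbS with water, the triple line had 4 of the 44 members higher, a share close to the 7.76% of all genes that were higher. None was lower. LHCB4.3 was at 81.4, 75.9 and 76.7 TPM in the triple line, against 59.2, 47.6 and 45.6 TPM in oePsbS (log2 fold change 0.69, SE 0.14, adjusted p = 0.00198, edgeR). LHCA6 was at 127, 146 and 140 TPM in the triple line, against 113, 115 and 115 TPM in oePsbS (log2 fold change 0.34, SE 0.10). LHCA5 and PSBO2 differed by 0.21 (SE 0.07) and 0.19 (SE 0.06). The count was 1 without oePsbS water replicate 2 or 3 or triple line water replicate 2, and 2 without triple line water replicate 3. With library totals alone, 2 members were higher and 4 lower, against 4 and 0 with TMM, and all genes split into 1074 higher and 1637 lower, against 1474 and 1128. The double line had no member past the threshold against oePsbS with edgeR, where 5.75% of all genes were called. Unadjusted p was under 0.05 for 7 members, a count without the share of all genes beside it. DESeq2 called 1 higher and 1 lower, and limma 1 lower.

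With bicarbonate, 15 of the 44 members were lower in the double line than in oePsbS, where 8.8% of all genes were lower, and none was higher. The median log2 fold change was −0.17 over the members and 0.00 over all genes, with 43 of 44 members below 0. The 15 comprised 8 antenna, 4 photosystem I and 3 photosystem II genes. LHCB1.1 had the smallest adjusted p and was at 8007, 8459 and 8520 TPM in the double line, against 9488, 9923 and 9743 TPM in oePsbS (log2 fold change −0.31, SE 0.05, adjusted p = 0.000392, edgeR). LHCA5 was at 224, 239 and 243 TPM in the double line, against 274, 289 and 273 TPM in oePsbS (log2 fold change −0.31, SE 0.07). PSAH2 was at 3138, 3482 and 3310 TPM in the double line, against 3734, 3960 and 3947 TPM in oePsbS (log2 fold change −0.29, SE 0.07). PSBQ1 was at 1716, 1611 and 1797 TPM in the double line, against 2021, 2061 and 2242 TPM in oePsbS (log2 fold change −0.38, SE 0.09). LHCB4.3 was at 52.3, 54.7 and 59.7 TPM in the double line, against 80.1, 73.9 and 81.4 TPM in oePsbS (log2 fold change −0.58, SE 0.14). All of these were apart between the genotypes, which is not separate evidence in members chosen because they passed. PSAK, with a log2 fold change of −0.33 (SE 0.09), LHCA6, PSBY, LHCB4.1, PSBO2, LHCB2.3, PSAE1, LHCB6, LHCB5 and PSAD1 made up the rest, and the values of the last 9 lay between −0.34 and −0.18.

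Without the double line library that lacks the βCA1 excess, 18 members were lower. The count was 6 without oePsbS bicarbonate replicate 2, 6 without oePsbS bicarbonate replicate 3, 6 without double line bicarbonate replicate 1 and 8 without double line bicarbonate replicate 2. With library totals alone 8 members were lower and all genes split into 2746 higher and 1107 lower, against 2028 and 1671 with TMM. Of the chlorophyll synthesis genes, 8 of 11 were lower in the double line and PORB was higher by 0.52. Of the leaf mesophyll markers 3 of 4 were lower, with summed levels of 21116 to 22545 TPM in the double line and 25740 to 26848 TPM in oePsbS, and LHY, CCA1 and RVE8 were lower among the 5 morning clock genes. Their part in the result was not tested.

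The double line was also lower than Col-0 with bicarbonate in 2 members, where 0.489% of all genes were lower. LHCB4.3 was at 52.3, 54.7 and 59.7 TPM in the double line, against 74.4, 106 and 100 TPM in Col-0 (log2 fold change −0.78, SE 0.14, adjusted p = 0.00334, edgeR), and LHCA5 differed by −0.25 (SE 0.06, adjusted p = 0.0402, edgeR). The count was 1 without Col-0 bicarbonate replicate 2 or 3 or any 1 of the 3 double line libraries, the library that lacks the βCA1 excess included, and 4 without Col-0 bicarbonate replicate 1. The triple line had no member past the threshold against oePsbS (8.5% of all genes called, 4 unadjusted p under 0.05, 1 lower with DESeq2) or against Col-0 (2.09% called, 1 unadjusted p under 0.05). Nor did oePsbS (0.274% called, 3 unadjusted p under 0.05, 2 higher with DESeq2) or npq4-1 (0.0421% called, 1 unadjusted p under 0.05) against Col-0. No member differed by 2-fold between any 2 of these genotypes.

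The difference between responses was tested directly in the fit of all 30 libraries. The response of the double line was lower than that of oePsbS for 11 members and higher for none, where 3.87% of all genes were lower. These comparisons share the oePsbS libraries with those above, so the values stand side by side and are not separate evidence. LHCA5 had the smallest adjusted p, with responses of −0.18 in the double line and 0.29 in oePsbS (difference −0.45, SE 0.09, adjusted p = 0.00601, edgeR). LHCB4.3 responded by −0.21 in the double line and 0.72 in oePsbS (difference −0.92, SE 0.20), and LHCA6 by −0.17 in the double line and 0.47 in oePsbS (difference −0.63, SE 0.14). PSBO2, PSAP and PSBQ1 differed by −0.35, −0.47 and −0.48, and PSAK, PSAH2, PSBP1, LHCB6 and LHCB7 passed with −0.42, −0.32, −0.31, −0.35 and −0.67. Without the library that lacks the βCA1 excess, 13 members were lower. The count was 5 without oePsbS bicarbonate replicate 3, oePsbS water replicate 3 or double line water replicate 1, 6 without oePsbS bicarbonate replicate 2 or double line bicarbonate replicate 1, and 7 without oePsbS water replicate 2, double line bicarbonate replicate 2 or double line water replicate 3. With library totals alone, the median over all genes was 0.12 in place of 0.01, that over the members −0.13 in place of −0.25, and 6 members were lower. All genes then split into 1594 higher and 417 lower, against 796 and 735 with TMM.

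The response of the triple line was lower than that of oePsbS for 5 members, where 5.98% of all genes were lower. They were LHCB4.3 (difference −0.92, SE 0.20, adjusted p = 0.00523, edgeR), LHCA5 (−0.37, SE 0.09), LHCA6 (−0.54, SE 0.14), PSBO2 (−0.28, SE 0.08) and PSBQ1 (−0.38, SE 0.12). The count was 3 without oePsbS bicarbonate replicate 2 or oePsbS water replicate 3, and 2 without triple line bicarbonate replicate 2 or triple line water replicate 2. Against the response of Col-0, no member passed for the triple line (0.726% of all genes called, 1 unadjusted p under 0.05), the double line (0% called, 12 unadjusted p), oePsbS (0.0316% called, 5 unadjusted p) or npq4-1 (0% called, 0 unadjusted p) with edgeR, and none with DESeq2 or limma. The shares called use adjusted p. No share of all genes at unadjusted p stands beside the member counts, so these are not read as results about the members.

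Shares were also followed within 8 gene families. Over the 30 libraries LHCB1.3 held 39.7% to 43.2% of the LHCB1 transcripts, LHCB1.5 18.1% to 21.4%, LHCB1.1 14.2% to 18.0%, LHCB1.2 12.6% to 14.7% and LHCB1.4 7.56% to 10.4%. LHCB2.1 held 38.6% to 42.9% of LHCB2, LHCB2.2 35.9% to 38.4% and LHCB2.3 19.3% to 24.5%. PSAD1 held 64.7% to 68.2% of its family, PSAE1 77.2% to 80.2%, PSAH2 73.6% to 79.1% and PSBO1 72.6% to 76.9%, with PSAD2, PSAE2, PSAH1 and PSBO2 making up the rest. Of the PSBQ transcripts, PSBQ1 held 36.0% ± 2.1 in oePsbS with bicarbonate and 30.0% ± 0.31 with water (SD, n = 3 each). In npq4-1 it held 34.0% ± 0.50 with bicarbonate and 29.7% ± 1.1 with water, and in Col-0 34.8% ± 1.1 with bicarbonate and 31.6% ± 0.61 with water. In the triple line it held 32.4% ± 1.3 with bicarbonate and 32.4% ± 2.2 with water, and in the double line 30.5% ± 0.48 with bicarbonate (30.2% without the library that lacks the βCA1 excess) and 29.9% ± 0.54 with water. LHCB4.3 held 1.21% ± 0.03 of LHCB4 in oePsbS with bicarbonate and 0.774% ± 0.14 with water. In npq4-1 it held 1.12% ± 0.09 with bicarbonate and 0.851% ± 0.21 with water, and in Col-0 1.45% ± 0.25 with bicarbonate and 1.11% ± 0.04 with water. In the triple line it held 1.07% ± 0.19 with bicarbonate and 1.29% ± 0.04 with water, and in the double line 0.897% ± 0.02 with bicarbonate (0.888% without that library) and 0.963% ± 0.10 with water. LHCB4.1 held 51.4% to 57.6% and LHCB4.2 41.1% to 47.9% over all libraries. These shares are ratios within a library, do not depend on scaling between libraries and were not tested.

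Promoter windows of 250 bases before the annotated start were searched on both strands for 6 motifs of light- and clock-regulated genes in plants. CCAATC occurred in 10 of 21 antenna promoters, 0 of 13 of photosystem I and 1 of 10 of photosystem II, and in 10.2% of all 27443 promoters. CACGTG, the G-box core, occurred in 10 of 44 members (22.7%) and in 6.49% of all promoters, and GATAAG in 9 members (20.5%) and in 12.3%. AAAAATCT occurred in 5 members (11.4%) and in 6.69%, and AACAATCT and AAAATATCT, the evening element, in 1 member each (2.27%) and in 1.83% and 2.36%. The windows of LHCB1.1 and LHCB2.2, of LHCB4.3, and of PSBQ1 and PSAH2, which each held 2 G-box cores, are shown to set beside the values above, with motif matches in capitals. PSBQ2, which did not pass in oePsbS (log2 fold change −0.01), held 2 as well.
LHCB1.1, chr1:10475970-10476219, minus strand: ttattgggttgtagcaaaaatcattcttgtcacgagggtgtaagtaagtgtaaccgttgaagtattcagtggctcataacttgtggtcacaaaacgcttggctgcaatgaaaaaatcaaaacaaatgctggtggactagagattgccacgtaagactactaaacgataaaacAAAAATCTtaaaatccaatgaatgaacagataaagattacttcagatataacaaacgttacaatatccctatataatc
LHCB2.2, chr2:1800473-1800722, minus strand: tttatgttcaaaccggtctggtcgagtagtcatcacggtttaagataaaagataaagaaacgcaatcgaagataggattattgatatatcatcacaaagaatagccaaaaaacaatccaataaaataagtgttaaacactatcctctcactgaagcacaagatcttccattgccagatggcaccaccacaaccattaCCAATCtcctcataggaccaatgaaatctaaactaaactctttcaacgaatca
LHCB4.3, chr2:16745378-16745627, plus strand: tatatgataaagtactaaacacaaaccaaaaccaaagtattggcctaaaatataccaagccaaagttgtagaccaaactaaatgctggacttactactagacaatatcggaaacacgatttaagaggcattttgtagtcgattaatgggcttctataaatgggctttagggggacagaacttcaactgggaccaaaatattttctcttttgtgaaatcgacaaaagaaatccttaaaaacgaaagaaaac
PSBQ1, chr4:11334102-11334351, plus strand: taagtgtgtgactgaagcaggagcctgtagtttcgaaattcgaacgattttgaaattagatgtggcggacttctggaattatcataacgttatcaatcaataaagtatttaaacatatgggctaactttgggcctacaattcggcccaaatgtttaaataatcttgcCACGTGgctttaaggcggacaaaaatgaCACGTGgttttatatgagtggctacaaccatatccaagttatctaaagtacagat
PSAH2, chr1:19454548-19454797, plus strand: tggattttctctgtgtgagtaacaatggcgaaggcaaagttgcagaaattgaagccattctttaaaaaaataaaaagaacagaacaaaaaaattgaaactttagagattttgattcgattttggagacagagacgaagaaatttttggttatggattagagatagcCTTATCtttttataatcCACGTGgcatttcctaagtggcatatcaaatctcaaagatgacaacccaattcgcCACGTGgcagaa
LHCB1.1 held AAAAATCT 78 bases before its start and LHCB2.2 CCAATC 53 bases before. PSBQ1 held CACGTG at 83 and 55 bases before its start, and PSAH2 at 67 and 12 with GATAAG, read on the opposite strand, at 84. LHCB4.3 held none of the 6 in this window. A match is a description of these letters and was not tied to any factor.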

How the data were processed

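The 30 libraries were made with a TruSeq Stranded mRNA kit and sequenced on NovaSeq in 150-base pairs. The authors mapped reads with Salmon (version not given in the sources used here) to the Ensembl TAIR10 cDNAs and used DESeq2. The deposited expected counts are Salmon's estimated reads for each of 48268 transcripts, not normalized. The deposited TPM values are those estimates per effective length, scaled by Salmon to a fixed library total.

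Both were summed over the transcripts of each of 27588 genes, and counts were rounded. Low genes were removed with filterByExpr (at least 10 reads, 15 in total), and the rest scaled by TMM and tested by edgeR 4.0.16's quasi-likelihood test in R 4.3.3 with Benjamini-Hochberg adjustment over all genes: each bicarbonate response in its own 6 libraries, and genotypes and differences of responses in all 30. "Rose" and "fell" mean adjusted p under 0.05, and the study's further limit of log2 fold change past 1 was met by no member. Counts of members at unadjusted p under 0.05 are given without the share of all genes and mark no result. For members past the test, whether libraries overlapped describes the same values and is not separate evidence. The functions were tested on simulated data. Alternatives were DESeq2 1.42.0, RLE factors, no count filter, limma 3.58.1 on log2(TPM + 1) with at least 1 TPM in 3 libraries, other libraries in the fit, a replicate block, paralogs summed, factors without the members, no organelle genes, each library left out and, added after the data were seen, library totals alone.

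Members and lists were chosen with earlier results of these data known. Named are, for each class, the 3 most abundant members and the lowest, LHCB1.1 and LHCB2.2, up to 6 members per direction and comparison with the smallest adjusted p, all members past both limits or passing in opposite directions, all loci of 8 paralog families, and up to 3 genes per other list. No 2 of the libraries held identical counts (435 pairs). Organelle genes took 0.0414% to 0.338% of reads. Positions, identities (Biopython 1.88) and motifs come from RefSeq TAIR10.1. All 44 loci were matched by locus tag, and their transcript lengths were those in the files.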

Additional observations from a re-analysis of the deposited data

Results flagged for a closer look

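The bicarbonate response differed between genotypes, tested as an interaction term, in 16 cases, given here as log2 differences. For the double line minus oePsbS these were LHCB4.3 (−0.92), LHCB7 (−0.67), LHCA6 (−0.63), PSBQ1 (−0.48), PSAP (−0.47), LHCA5 (−0.45), PSAK (−0.42), PSBO2 (−0.35), LHCB6 (−0.35), PSAH2 (−0.32) and PSBP1 (−0.31). For the triple line minus oePsbS these were LHCB4.3 (−0.92), LHCA6 (−0.54), PSBQ1 (−0.38), LHCA5 (−0.37) and PSBO2 (−0.28). All 5 genes of the second set were also in the first, and both sets share the 6 oePsbS libraries. No single library was tested for standing apart within its group, since each group held 3.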

How the results depend on the processing

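The 53 member results past the threshold kept their sign in all 985 recomputed values; 227 of these missed the threshold, and 17 results passed under every alternative: LHCA6, LHCB4.3, PSAP and PSBQ1 in the oePsbS response; LHCB4.3 in the triple line against oePsbS with water and in the mean response; LHCA5, LHCB1.1, LHCB4.3, PSAH2 and PSBQ1 in the double line against oePsbS with bicarbonate; and, among the differences from the oePsbS response, LHCA5, LHCA6, LHCB4.3 and PSAP for the double line and LHCA5 and LHCB4.3 for the triple line. Where a cause is not part of the setting itself, it was not tested. Of 51 correlations between same-numbered libraries 12 were over 0.1, with all 3 over it in 0 of 17 comparisons. This count cannot show a pattern shared by 1 replicate number alone. The highest correlation was 0.364, between replicate 3 of the triple line and of Col-0 with bicarbonate. PSBX was at 3146 to 3531 TPM in bicarbonate replicate 3 of each genotype, against 2230 to 3008 TPM in bicarbonate replicates 1 and 2. What these libraries share was not tested. With a replicate block 4 of the 53 missed the threshold, 9 members were higher in the oePsbS response, 14 lower in the double line against oePsbS with bicarbonate, and 1 higher in the npq4-1 response, against 0 without it.

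Counts that moved by over 1.5 times were these. In the oePsbS response 6 members were higher with limma (11 in edgeR) and 1 lower with library totals alone (0). In the double line response 1 was lower with DESeq2 (0). For oePsbS against Col-0 with water, 2 were higher with library totals and 0 with no count filter, other libraries fitted or paralogs summed (1), and 0 were lower with paralogs summed (1). For the double line against oePsbS with water (0 each), 1 was higher with DESeq2 and 2 with other libraries fitted, and 1 was lower with DESeq2, library totals or limma. For the triple line against oePsbS with water, 2 were higher with library totals, limma or paralogs summed (4), and 4 were lower with library totals or limma (0). With bicarbonate, 2 were higher in oePsbS than in Col-0 with DESeq2 (0). In the double line against Col-0, 4 were lower with DESeq2, 1 with no filter or paralogs summed and 0 with other libraries fitted (2). In the double line against oePsbS, 8 were lower with library totals, 7 with limma and 7 with paralogs summed (15). In the triple line against oePsbS, 1 was lower with DESeq2 or library totals (0). The mean response had 0 higher with paralogs summed (3). For the double line response minus that of oePsbS, 6 were lower with library totals, 5 with limma and 7 with paralogs summed (11). For the triple line response minus that of oePsbS, 1 was higher with library totals, limma or other libraries fitted (0), and 2 were lower with paralogs summed (5). Summing paralogs leaves fewer members to count.

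Leaving out 1 library gave 4 to 14 members higher and 0 to 2 lower in the oePsbS response, 0 to 1 lower in the double line response, and 1 to 5 higher in the mean response. For oePsbS against Col-0 it gave 0 to 4 higher and 0 to 1 lower with water and 0 to 2 higher with bicarbonate. It gave 1 to 4 higher for the triple line against oePsbS with water, 1 to 4 lower for the double line and 0 to 1 lower for the triple line against Col-0 with bicarbonate, and 6 to 18 lower for the double line against oePsbS with bicarbonate. The difference from the oePsbS response gave 5 to 13 lower (0 to 1 past 2-fold) for the double line and 2 to 6 lower (0 to 1 past 2-fold) for the triple line, and the triple line response minus that of Col-0 gave 0 to 1 lower.

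Summed class levels were compared on TPM, and on TMM-scaled CPM their log2 ratios moved by more than the replicate SD in these cases. They were −0.000282 for the antenna, 0.145 for photosystem I and 0.109 for photosystem II in the oePsbS response, and −0.117 for the antenna and −0.133 for photosystem II in the double line response. With water, the double line against oePsbS gave −0.00923 for the antenna, 0.0941 for photosystem I and 0.0898 for photosystem II, and the triple line against oePsbS −0.0734, 0.0626 and 0.0593 in that order. With bicarbonate, the double line gave −0.126, −0.181 and −0.153, and the triple line −0.0224 for the antenna and −0.0595 for photosystem II. Depth was ample for every member (at least 226 reads), and the 3 libraries per group limit precision.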
